A study of Mus musculus with 4 samples.

Results

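Runx2 occupancy was examined at 8 genes that set the supply of phosphate and pyrophosphate to the bone matrix or restrain its calcification: *Alpl*, *Phospho1*, *Enpp1*, *Ank*, *Slc20a1*, *Slc20a2*, *Phex* and *Mgp*. The genes were chosen by function, with earlier results of these data known, out of 22380 protein-coding genes of the annotation. Every Runx2 peak that shared at least 1 bp with the gene body widened by 20 kb on each side was taken as theirs. The 8 windows covered 951 kb of the mouse genome (mm9) and took in 29 of 25457 Runx2 peaks for day 0, 63 of 60596 for day 9 and 53 of 40330 for day 28. Joined wherever they shared a base, these peaks formed 73 of the 67703 merged Runx2 regions of the genome.

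The cells were MC3T3-E1 subclone 4, a preosteoblast line established from mouse calvaria and labelled as C57BL/6, at passages 28-31. Cells at day 0 were proliferating preosteoblasts, cells at day 9 were depositing matrix and cells at day 28 were mineralizing. Values given in threes follow the order of days 0, 9 and 28. Differentiation was brought about with ascorbic acid and beta-glycerophosphate, a phosphate donor. Chromatin of each stage was immunoprecipitated with the same Runx2 antibody (M70) and sequenced (ChIP-Seq), with input DNA of matrix-depositing cells as control. All stages come from 1 clonal line, and a list of peaks holds no expression values by which the cell type could be checked.

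For each time point the authors pooled 2 libraries before they called peaks and deposited 1 list, so a difference between days has no replicate error and was not tested. The lists hold no read counts. Raw read totals, as given with the study, were largest for the proliferating cells, whose list is the shortest, and smallest for the mineralizing cells. The part of depth in the counts was not tested. The score of a peak is 10 times the negative log10 of its p-value, and every deposited peak had passed 1e-10. Many peaks tied at a score of 3100, namely 192, 2699 and 1468 peaks in the order of days. Because scores rise with depth, each is given with the percentage of its own list that scored lower, and a score of 3100 stood above 99.2%, 95.2% and 96.0% of the lists.

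Mineral forms in bone where inorganic phosphate accumulates and pyrophosphate, a small inhibitor of crystal growth, is removed. *Alpl* encodes the tissue-nonspecific alkaline phosphatase that hydrolyses pyrophosphate, and *Phospho1* a phosphatase that releases phosphate inside matrix vesicles. *Enpp1* makes pyrophosphate outside the cell, and *Ank* serves its export. *Slc20a1* and *Slc20a2* encode sodium-dependent phosphate transporters, *Phex* an endopeptidase whose loss causes renal phosphate wasting, and *Mgp* a vitamin K-dependent protein that inhibits calcification. Runx2 is the transcription factor required for osteoblast formation, and Runx proteins bind DNA at the core sequence TGTGGT.

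The sequences around TGTGGT are shown first for the highest-scoring day 9 peaks of each window, since most results below concern these peaks. They include the day 9 peaks over start sites. Those of *Phex* and *Enpp1* ranked low, above 22.5% and 16.1% of the list. The sequences were chosen after the scores were seen. Each line gives 30 bases of mm9, read 5′ to 3′ on the stated strand, with the core in capitals and its distance from the reference start site of the gene (negative where upstream).
*Alpl* intron 7, +47391 bp (chr4:137304894-137304923, minus strand): tctggaaatgacTGTGGTcaggcttgaaga
*Alpl* intron 9, +51699 bp (chr4:137300586-137300615, plus strand): ccttccctttgtTGTGGTtgtgggagcagc
*Alpl* exon 10, +52682 bp (chr4:137299603-137299632, minus strand): agacaccttgacTGTGGTtactgctgatca
*Alpl* downstream, +60279 bp (chr4:137292006-137292035, minus strand): aatgaagaaggcTGTGGTgtgagtagagtg
*Phospho1* upstream, -15990 bp (chr11:95669810-95669839, minus strand): acatgatgggctTGTGGTgtgtgaagagct
*Phospho1* upstream, -15975 bp (chr11:95669825-95669854, plus strand): acaagcccatcaTGTGGTcactggcctcag
*Phospho1* upstream, -15357 bp (chr11:95670443-95670472, plus strand): tgagtatgtgtgTGTGGTgacagggatgtg
*Phospho1* upstream, -518 bp (chr11:95685282-95685311, minus strand): acacttgagcacTGTGGTgcaaataaaacc
*Slc20a1* upstream, -66 bp (chr2:129024420-129024449, plus strand): gcccgaccagccTGTGGTtgcgtcacatcg
*Mgp* upstream, -275 bp (chr6:136824587-136824616, minus strand): caaacctgtgttTGTGGTaactgccctctc
*Mgp* upstream, -554 bp (chr6:136824866-136824895, plus strand): tgggggtagagaTGTGGTaccctagttttg
*Phex* intron 3, +25027 bp (chrX:153828177-153828206, minus strand): aaaagaggcaatTGTGGTtcctgccgaggt
The day 9 peaks over the start sites of *Ank* and *Slc20a2* and the single *Enpp1* peak held no TGTGGT on either strand.

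At the windows of the 8 genes, Runx2 peaks were most numerous at *Alpl* and scarcest at *Enpp1*. A peak was present at 7 of 8 genes at day 0, 8 of 8 at day 9 and 7 of 8 at day 28, while 65.0%, 76.9% and 71.2% of all protein-coding genes had one. The gene without a peak at days 0 and 28 was *Enpp1*. The median number of peaks per gene was 4.00 at day 0 and 5.50 at both later days, against 1, 2 and 2 over all genes. Per 100 kb of window the medians were 4.65, 7.40 and 4.56 peaks, against 1.69, 3.49 and 2.33 over all genes. The wide range among members is shown by the plot of peak counts by gene.

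**Figure D1:**
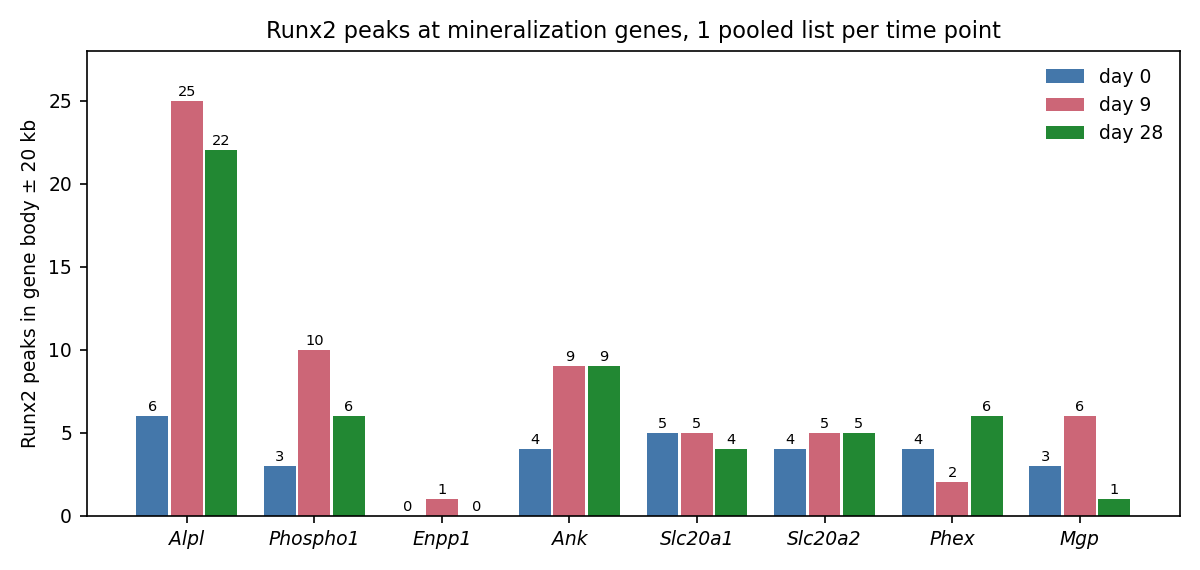
Number of Runx2 peaks (vertical axis) in the gene body and 20 kb on each side of the 8 genes, with 1 bar for each of the 3 time points and the count above it. *Alpl* stands highest, at 6, 25 and 22 peaks, and *Enpp1* had a single peak at day 9.

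From day 0 to day 9 the number of peaks rose at 6 of 8 genes, was equal at *Slc20a1* and was lower at *Phex*, and 60.3% of all genes had more peaks at day 9. From day 9 to day 28 it was lower at 5 of 8 genes, against 50.2% of all genes. The day 9 list is the longest, and lists of equal length gave other counts. With the 25457 top-scoring peaks of each list, the 8 windows held 29, 33 and 31 peaks at days 0, 9 and 28. In these only *Alpl* (6, 16 and 13 peaks) and *Phospho1* (3, 5 and 5 peaks) had more peaks at day 9 than at day 0, that is 2 of 8 genes against 22.9% of all genes. At 4 genes there were fewer at day 9 than at day 0, namely *Slc20a1* (5 and 3), *Slc20a2* (4 and 3), *Phex* (4 and 0) and *Mgp* (3 and 2), and *Ank* and *Enpp1* had equal numbers.

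*Alpl*, the alkaline phosphatase gene, lies on the minus strand at chr4:137297648-137352299. Its window held 6 peaks in preosteoblasts at day 0, then 25 at day 9 and 22 at day 28. This is 20.7%, 39.7% and 41.5% of the peaks of all 8 windows. Fewer peaks than at *Alpl* were found at 95.3% of genes at day 0, 99.4% at day 9 and 99.8% at day 28. Per length the picture was alike, with a density of 6.34, 26.4 and 23.2 peaks per 100 kb, above that of 89.6%, 99.0% and 99.8% of genes.

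The 25 merged *Alpl* regions were spread over the first intron, the 3′ portion of the gene and the sequence downstream of it. Of these, 6 held peaks at all 3 days, 11 at days 9 and 28, 6 at day 9 only and 2 at day 28 only. None was seen at day 0 alone. Over all merged regions of the genome these classes made up 27.4%, 21.1%, 34.5% and 7.59%, and day 0 alone only 5.60%. In intron 1, the long intron that separates the upstream start site from the coding exons, 1 peak was present at day 0, 8 at day 9 and 7 at day 28. Downstream of the gene there were 2, 11 and 8 peaks.

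**Figure D2:**
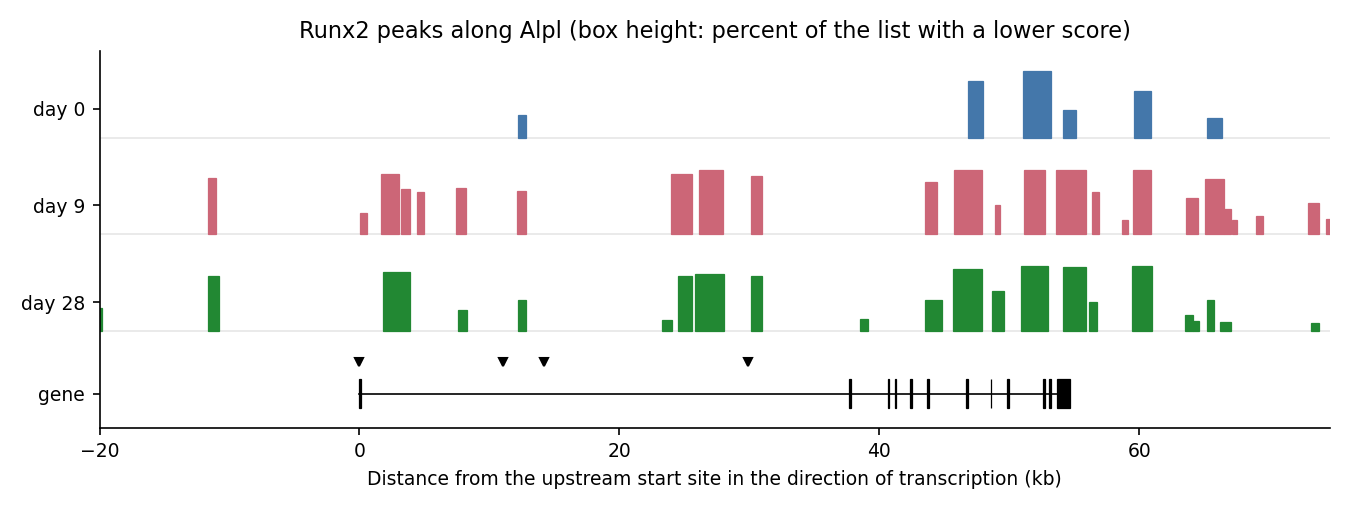
Position of Runx2 peaks along *Alpl*, in kb from the upstream start site in the direction of transcription, with 1 row for each time point; the width of a box is that of the peak and its height the percentage of the list with a lower score. Black boxes are exons, triangles annotated start sites. The row of day 0 has 1 peak in intron 1 and 5 from exon 7 onward, and the rows of days 9 and 28 have more in both parts.

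The region in intron 9 (chr4:137299112-137301413) had the tied score of 3100 at days 0, 9 and 28. No other peak of the 8 windows reached this score at day 0. The region at exon 7 and intron 7 (chr4:137304343-137306642) scored 653 at day 0, 3100 at day 9 and 1966 at day 28, above 81.5%, 95.2% and 90.6% of the lists. At the 3′ end of the gene (chr4:137296375-137298683) the scores were 187, 2999 and 2625, above 32.8%, 95.0% and 94.3%. A region downstream of the gene (chr4:137291299-137292841) scored 407, 3100 and 3100, above 65.9%, 95.2% and 96.0%. These 4 regions thus held a peak in preosteoblasts already. The peak centres of the 3 days did not coincide, and spread over 192, 605, 408 and 64 bp in the order of the regions named. The regions outside intron 9 stood above a larger share of their list at both later days, and did so in lists of equal length too.

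Most regions of either part were first listed after day 0. Of the 13 regions from exon 7 to the end of the window 8 had no day 0 peak, nor had 6 of the 7 in intron 1. Of all merged regions, 21.1% (days 9 and 28), 34.5% (day 9 only) and 7.59% (day 28 only) likewise had none at day 0. In lists of equal length most of those 8 regions held no peak at any day, while the 6 of intron 1 kept one. The region of intron 1 with one was at +12491 bp (chr4:137339450-137340167), with scores of 159, 373 and 240.45, above 25.1%, 60.1% and 39.3% of the lists but above 25.1%, 5.08% and 3.85% of lists of equal length. A group of 3 regions lay around the downstream start site at chr4:137322390, from which a shorter *Alpl* transcript begins, and none of them had a peak at day 0. The region at chr4:137324282-137326460 scored 2652 at day 9 and 1228 at day 28, above 93.9% and 82.4% of the lists. Its neighbour at chr4:137326706-137329036 scored 1681 and 1005 (88.5% and 78.3%). The third, at chr4:137321296-137322169, scored 1297 and 1070.3 (84.8% and 79.6%), and its day 9 centre was 641 bp inside the transcript. Further upstream, a region at -11215 bp (chr4:137363096-137363933) scored 1092 and 1021 and was also seen at days 9 and 28 only.

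No *Alpl* peak covered an annotated start site at any day. The nearest to the upstream start was a day 9 peak of low rank (score 140.13, above 22.9% of the list), centred at +313 bp. At the strictest threshold applied, a p-value of 1e-100, *Alpl* had 1, 9 and 9 peaks at days 0, 9 and 28. Part of the window belongs to *Rap1gap*, a gene on the opposite strand that ends inside it, and a start of it was the nearest for 3, 11 and 8 of the peaks, so that 3, 14 and 14 peaks were nearest to a start of *Alpl*.

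*Phospho1*, on the plus strand at chr11:95685813-95693454, had 3, 10 and 6 peaks, more than 75.7%, 91.4% and 88.1% of genes. A pair of regions carried its highest scores at every day. The first lay over the start site (chr11:95684824-95686578) and scored 564 at day 0 and 3100 at both later days, above 77.1%, 95.2% and 96.0% of the lists. The second, at -15671 bp (chr11:95669114-95671173), scored 815, 3100 and 3100, above 86.9%, 95.2% and 96.0%. This upstream region lies inside *Zfp652*, a zinc finger gene on the same strand whose body overlaps that of *Phospho1*.

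Between the upstream region and the start, a peak at -12009 bp (chr11:95673392-95674219) was present at day 9 (score 815, above 77.0%) and day 28 (421, above 57.1%). Peaks 3′ of *Phospho1* overlapped *Abi3* and *Gngt2*, whose starts were the nearest for 1, 5 and 3 of the *Phospho1* peaks. The highest of them (chr11:95696137-95699148) scored 181, 1786 and 525.39. With these set aside, 2, 5 and 3 peaks were nearest to a start of *Phospho1*.

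*Enpp1*, the source of extracellular pyrophosphate, had the fewest Runx2 peaks. Its window of 114 kb on chromosome 10 held a single peak, at day 9, and a peak that did not pass 1e-10 would not be listed. The day 9 peak (chr10:24345896-24346289) was downstream of the gene with a score of 125, above 16.1% of the list, and was nearest to the start of *Ctgf*, a connective tissue growth factor gene. The same 3 counts were found at 857 other genes.

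*Ank*, the gene for pyrophosphate transport, lies on the plus strand at chr15:27396432-27524664 and had 4, 9 and 9 peaks. Over its window of 168 kb this came to 2.38, 5.35 and 5.35 peaks per 100 kb, more than 63.6%, 63.6% and 75.2% of genes. The peak over the start site (chr15:27395724-27397093) scored 193 in proliferating cells, 1170.33 at day 9 and 1576 at day 28, and its rank went from above 34.4% of the list to 83.2% and 87.1%. Intron 1 held 3, 5 and 5 peaks. In that intron the highest day 0 peak was at +19377 bp (chr15:27414976-27416643), with 457 at day 0, above 70.1% of the list, but 114 and 117 at the later days, above 10.1% and 8.60%. Another region of this intron, at +51539 bp (chr15:27447564-27448379), scored 123, 775 and 347, above 11.5%, 76.1% and 51.3% of the lists and 11.5%, 43.1% and 22.9% of lists of equal length. Peaks at the 3′ end of *Ank* were found at days 9 and 28 only, and the highest of them (chr15:27524706-27525816) scored 734 and 1208.35. The start of *Fam105b* was the nearest for 3 *Ank* peaks at each of these days.

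*Slc20a1* and *Slc20a2*, the phosphate transporter genes, differed by at most 1 peak between days. *Slc20a1* (chr2:129024500-129037352, plus strand) had 5, 5 and 4 peaks, and each of them was nearest to its own start. The start site peak (chr2:129023578-129025150) scored 524, 3100 and 2454, above 74.8%, 95.2% and 93.6% of the lists. A peak at -12177 bp (chr2:129011915-129012731) was found at all 3 days, with 322, 757 and 565, and so was one in intron 6 (chr2:129031761-129033090), with 509, 664 and 229.5. The highest day 0 peak of this gene was absent from the later lists, since the region downstream of the gene (chr2:129037549-129038915) scored 634 at day 0, above 80.7% of the list, and held no peak at day 9 or day 28.

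*Slc20a2* (chr8:23587172-23680079, plus strand) had 4, 5 and 5 peaks. Its start site peak (chr8:23586636-23588041) scored 103 at day 0, just past the threshold and above 1.58% of the list, then 1634 at day 9 (88.2%) and 1877 at day 28 (89.9%). This peak cannot be given to *Slc20a2* alone, because the start of *AI316807* on the opposite strand, at chr8:23587351, was also under it. A pair of adjacent regions about the second exon was found at all 3 days. The one at chr8:23644680-23646237 scored 375, 1501 and 2907, and the one at chr8:23646459-23647508 scored 1362, 1114 and 1762. The latter stood above 94.8%, 82.3% and 88.9% of the lists. No *Slc20a2* peak was nearest to the gene's own start, as *AI316807* or *Vdac3* was nearer to each.

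**Figure D3:**
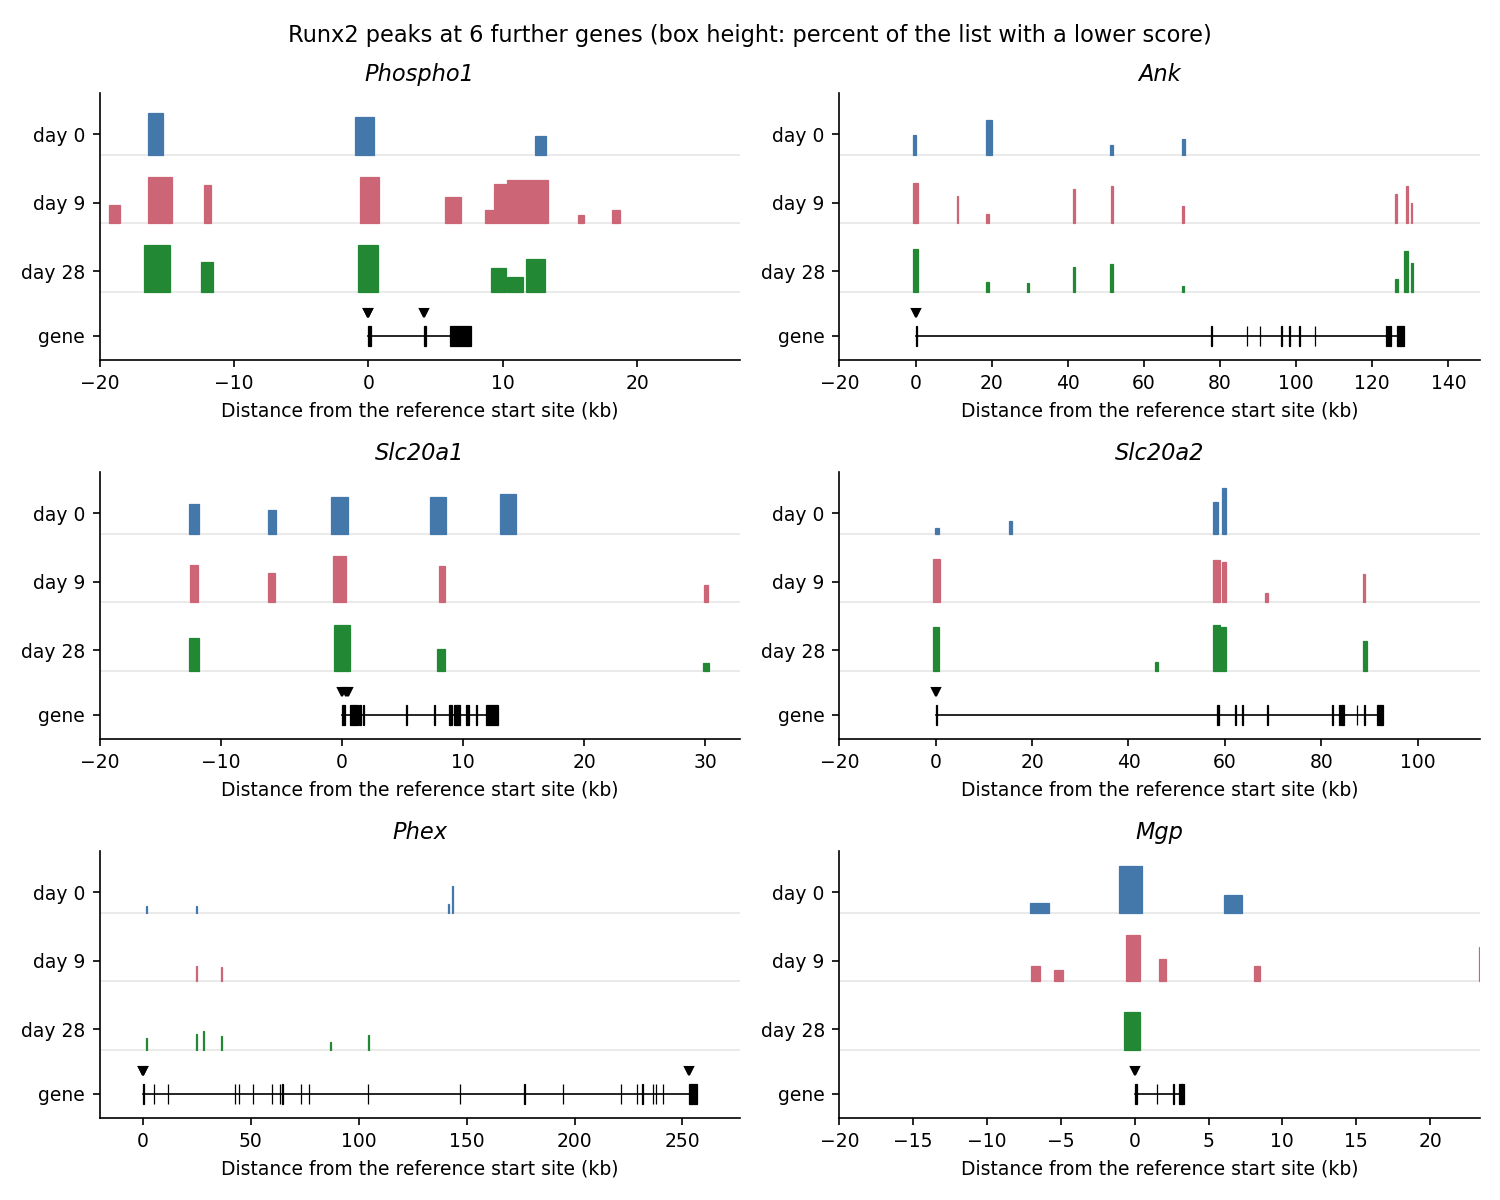
Position of Runx2 peaks at 6 of the genes, in kb from the reference start site in the direction of transcription, drawn as for *Alpl*. Tall boxes stand at the start sites of *Phospho1*, *Slc20a1* and *Mgp* at each day, and at those of *Ank* and *Slc20a2* at days 9 and 28. The boxes of *Phex* are low apart from 1 at day 0 (50.9%).

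*Phex*, the longest member at 257 kb (chrX:153596618-153853244, minus strand), had 4, 2 and 6 peaks, or 1.35, 0.674 and 2.02 per 100 kb. These densities were above those of 44.5%, 24.7% and 45.1% of genes. All 12 peaks were centred in introns and none covered a start site. Their scores were low. The highest was 277 at day 0 in intron 12 (chrX:153709400-153709993), above 50.9% of the list, against 139 at day 9 and 187 at day 28. Only the region in intron 3 at chrX:153827907-153828465 held a peak at each day, with 109, 139 and 162.87. At a p-value threshold of 1e-20, 1 *Phex* peak was left at day 0 and none at days 9 and 28.

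*Mgp*, the inhibitor of calcification, is the shortest member at 3.37 kb (chr6:136820957-136824326, minus strand). It had 3, 6 and 1 peaks. The peak over its start (chr6:136823814-136825377) ranked highest among the start site peaks of the members at day 0, with a score of 2103, above 97.8% of the list. It scored 3100 at day 9 (95.2%) and 874 at day 28 (75.1%). *Mgp* was thus the only one of the 5 genes with a start site peak at which that peak ranked lower at day 28 than at day 0. Its other 6 regions held peaks at days 0 or 9 and none at day 28, and the highest of them was at chr6:136799536-136800998 over *Art4*, with a day 9 score of 545.3.

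A Runx2 peak covered an annotated start site of 5 of 8 members at day 0, day 9 and day 28, while 40.7%, 48.4% and 48.3% of all genes had such a peak. The same genes, *Phospho1*, *Ank*, *Slc20a1*, *Slc20a2* and *Mgp*, had it at each day. In 4 of these the start site peak stood above a larger share of its list at days 9 and 28 than at day 0, as the plot of start site ranks shows. A longer list that adds weak peaks raises this share, so it was also taken among the 25457 top-scoring peaks of each list, an alternative added after the data were seen. It was then 77.1%, 88.6% and 93.6% for *Phospho1*, 34.4%, 59.9% and 79.5% for *Ank* and 74.8%, 88.6% and 89.9% for *Slc20a1*. *Slc20a2* had 1.58%, 71.8% and 84.1%, and *Mgp* 97.8%, 88.6% and 60.5%. The tied score of 3100 itself stood at 99.2%, 88.6% and 93.6%, which bounds the values of peaks that had it. Start site peaks were GC-rich, with a median of 73.1%, 71.6% and 75.1% G and C in the 201 bp about the centre at days 0, 9 and 28, and the lowest value of each day was that of *Mgp* (54.7%, 55.2% and 56.2%). The remaining member peaks had medians of 50.0%, 54.0% and 52.7%.

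**Figure D4:**
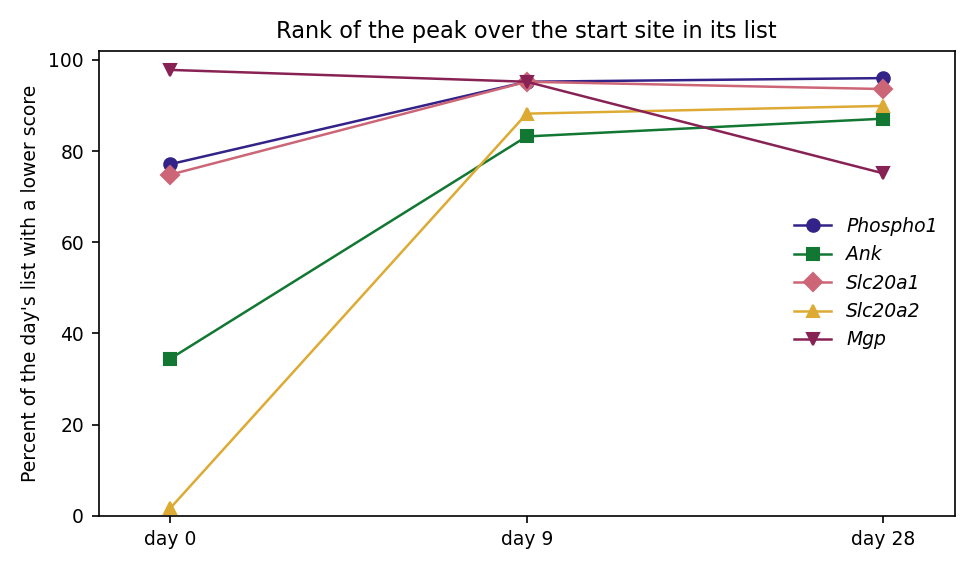
Percentage of each day's list with a lower score than the peak over the start site (vertical axis) at the 3 time points, for the 5 genes that had such a peak. *Slc20a2* went from 1.58% to 88.2% and 89.9%, and *Mgp* from 97.8% to 95.2% and 75.1%.

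Grouped by time point, 21 of the 73 merged regions of the members held peaks at all 3 days (28.8%, against 27.4% of all merged regions of the genome). Peaks at days 9 and 28 were found in 20 regions (27.4% against 21.1%), and without *Alpl* in 9 of 48 (18.8%). A day 9 peak alone was held by 17 regions (23.3% against 34.5%), a day 28 peak alone by 7 (9.59% against 7.59%) and a day 0 peak alone by 5 (6.85% against 5.60%). The regions seen at day 0 alone belonged to *Phex* (2), *Slc20a1* (1), *Slc20a2* (1) and *Mgp* (1). The last 3 regions held peaks at days 0 and 9 (2) or days 0 and 28 (1).

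**Figure D5:**
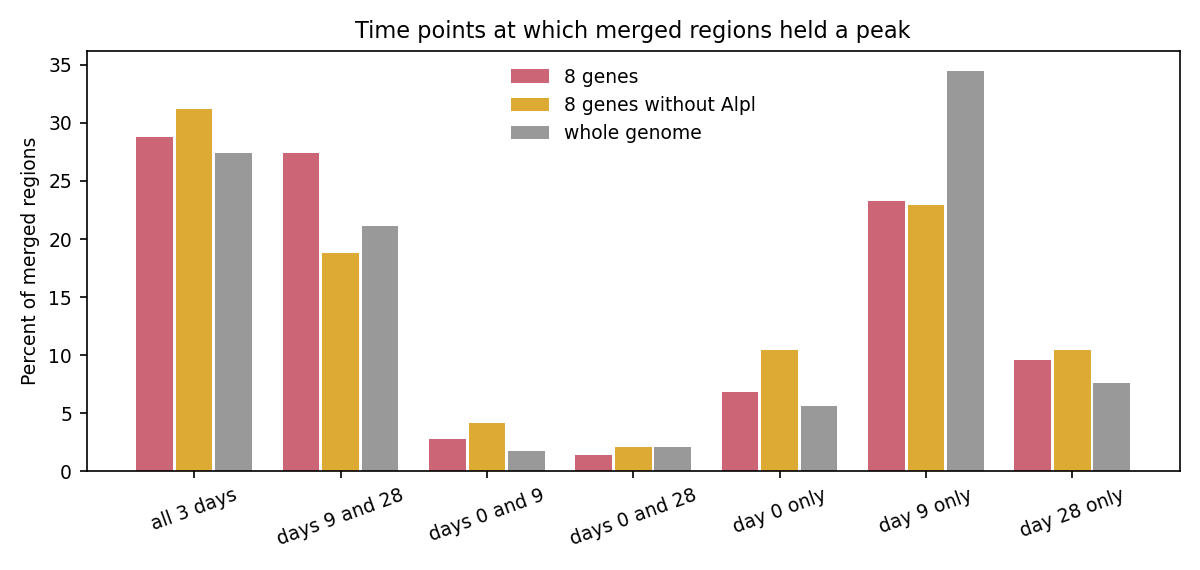
Percentage of merged regions (vertical axis) that held peaks at the stated time points, for the 8 genes, for the 8 genes without *Alpl*, and for the whole genome. Regions of days 9 and 28 made up 27.4% at the 8 genes, 18.8% without *Alpl* and 21.1% in the genome.

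The core TGTGGT was looked for on both strands within 50 bp of the peak centres, which stand in for the summits. It was found in 9 of 29 member peaks at day 0 (31.0%, exact Clopper-Pearson 95% interval 15.3 to 50.8%), 11 of 63 at day 9 (17.5%, 9.05 to 29.1%) and 7 of 53 at day 28 (13.2%, 5.48 to 25.3%). The share of all peaks with the core was 16.0%, 25.3% and 20.9%, inside the interval of each day. In windows of the same length 450 to 550 bp from the member peak centres it was 5.17%, 7.94% and 4.72%. These intervals cover counting error only, and peaks of different days at a shared region repeat the same sequence.

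Most of the highest peaks had the core off the centre. Of the peaks over start sites, only that of *Mgp* at day 0 held it within 50 bp of the centre. The 30 bases at *Mgp* -275 bp and *Slc20a1* -66 bp shown above lay 138 and 124 bp from the day 9 centres, and the one in *Alpl* intron 9 lay 237 bp from it. Others shown there lay further out (negative toward lower coordinates). They were at -746 bp (*Alpl* exon 10), -587 bp (*Alpl* intron 7), -575 bp (*Phospho1* -518 bp) and 417 bp (*Mgp* -554 bp). The *Phospho1* cores at -15990, -15975 and -15357 bp lay -489, -474 and 144 bp from the centre. Those of *Phex* intron 3 and *Alpl* downstream lay closer, at 28 and -78 bp. Within whole peaks the core was present in 20 of 29, 41 of 63 and 36 of 53 member peaks (69.0%, 65.1% and 67.9%), against 61.4%, 58.7% and 61.6% of all peaks. The AP-1 core TGANTCA, which holds no TGTGGT, was found near the centre of 2, 1 and 2 member peaks (6.90%, 1.59% and 3.77%, against 6.07%, 3.69% and 4.63% of all peaks).

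In each region the core was also looked for at the centre of the highest-scoring day 9 peak, or of the day 28 or day 0 peak where there was none. For 3 such regions, chosen after their values were seen, the core closest to the day 9 centre of the region is printed. Cores of other regions lay as close or closer, as at *Phospho1* +15845 bp, 0 bp from the centre.
*Alpl* intron 6, +43956 bp (chr4:137308329-137308358, minus strand): cattaagggattTGTGGTtggaacaggcag
*Ank* intron 1, +41703 bp (chr15:27438121-27438150, minus strand): atgctcttcctcTGTGGTgctgcccggata
*Slc20a1* upstream, -5821 bp (chr2:129018665-129018694, minus strand): gacgactcatccTGTGGTtgctccctttgg
They lay 4, 16 and 5 bp from the centres, in peaks that scored 706, 548 and 334.54. Peaks of this kind scored above 5.53% to 79.6% of their lists. Of the 73 merged regions, 12 had the core at the centre: 3 of 25 at *Alpl*, 3 of 10 at *Ank*, 2 of 6 at *Slc20a1*, 2 of 8 at *Phex*, 1 of 9 at *Phospho1*, 1 of 7 at *Mgp* and none at *Slc20a2* or *Enpp1*.

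Among 17 other genes of phosphate handling, matrix vesicles and vitamin K-dependent carboxylation, 15 had a peak at day 0 and 16 at each later day. The share over all protein-coding genes was 65.0%, 76.9% and 71.2%. The medians of the 17 genes were 2.00, 5.00 and 3.00 peaks. More peaks at day 9, the longest list, than at day 0 were found at 14 of them, against 60.3% of all genes. Fewer at day 28 than at day 9 were found at 10, against 50.2% of all genes. *Smpd3*, a sphingomyelinase needed for mineralization, had 0, 9 and 3 peaks. *Anxa2*, an annexin of matrix vesicles, had 8, 10 and 10, and *Vkorc1*, of the vitamin K cycle, 4, 9 and 5. *Fgf23*, the hormone of phosphate excretion made by osteocytes, had 1 peak at day 0 and 0 at both later days.

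A further 14 genes were relatives of the members by sequence or, for the *Slc34* genes, by sodium-phosphate transport. Of these, 6 had a peak at day 0 and 11 at days 9 and 28, against 65.0%, 76.9% and 71.2% of all genes. Some windows overlapped, as those of *Alpi* and *Alppl2* and of *Enpp4* and *Enpp5*, so a peak can count for more than 1 gene. Their medians were 0, 2 and 1.5 peaks. *Akp3*, an alkaline phosphatase like *Alpl*, had no peak at any day, and *Alpi* had 0, 2 and 1. *Slc34a2*, of the other family of sodium-phosphate transporters, had none, and *Slc34a1* had 1, 7 and 4. Likeness over the 3 days was taken as the distance between log2 counts plus 1, and was looked for among the genes of either list only. Of these, the counts most like those of *Alpl* were those of *Ece1* (11, 23 and 14 peaks, distance 1). *Ece1*, a relative of *Phex*, lies close to *Alpl*, at chr4:137418152-137521144. For *Phospho1* and *Ank* the nearest listed gene was *Vkorc1* (0.41 and 0.74). For *Slc20a1*, *Slc20a2* and *Phex* it was *Anxa5*, with 4 peaks at each day (0.37, 0.37 and 0.88). *Mgp* was as near to *Ppa1* as to *Vkorc1l1*, both with 2, 4 and 2 peaks (0.87), and *Enpp1* to *Akp3* as to *Slc34a2*, both without a peak (distance 1). Outside the lists, other genes had the same 3 counts as *Phospho1* (11), *Enpp1* (857), *Ank* (3), *Slc20a1* (13), *Slc20a2* (46) and *Phex* (1).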

How the data were processed

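Runx2 ChIP-Seq was carried out by the authors at 3 time points. Reads were mapped to mm9 and the 2 libraries of a time point were pooled before peaks were called against input DNA and kept at a p-value of 1e-10. The submitters' processing notes name Bowtie (0.12.8), MACS (1.4.1) and CASAVA (1.6). The deposited lists give the start, end and score of each peak, a score of 10 being worth a factor of 10 in the p-value that MACS gave. Read counts and depth are not in the lists, which limits comparison between days, and the input library was not analysed here.

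Genes were taken from GENCODE M1 (Ensembl 65) on NCBIM37, the assembly of the lists, after checking chromosome ends. The reference transcript of a gene set its start site, exons and introns, and peaks were placed by their centres. Peaks of the 3 lists sharing 1 bp were merged. All peaks of the 8 members are counted, and those named are, by rule, at start sites, highest in a window or present at particular days; others were chosen after their values were seen. The members, gene lists and rule were chosen with earlier results of these data known. No test was made, since each day has 1 list. The 95% intervals of shares are exact (Clopper-Pearson) and cover counting error only. Alternatives concerned thresholds, windows, merging, list length and the motif. Counting, merging and motif search were tested on simulated data. Python 3.11.15, NumPy 2.4.6, SciPy 1.17.1, pysam 0.24.0 and Matplotlib 3.10.9 were used.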

Additional observations from a re-analysis of the deposited data

How the results depend on the processing

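Applied 1 at a time, all 10 alternatives to threshold, window, list length and members left day 0 with the fewest peaks of the 3 days. Day 9 had the most under 9, the exception being the gene bodies alone. In lists of equal length *Alpl* had 6 peaks at day 0 and 16 at day 9. Of the 8 genes, 2 then had more peaks at day 9 than at day 0, 2 as many and 4 fewer. Lists of equal length and the removal of *Alpl* were not combined. The alternatives that moved a count by over 1.5 times follow, with days 0, 9 and 28 in order. A p-value of 1e-20 left 15, 40 and 32 peaks in 44 merged regions, of which 11 held peaks at all days and 8 at day 9 alone. At 1e-50 there were 9, 28 and 20 peaks in 29 regions, with 7 at all days, 13 at days 9 and 28 and 7 at day 9 alone. At 1e-100 there were 3, 18 and 17 peaks in 19 regions, with 3 genes having a peak at day 0, 2 regions at all days and 1 at day 9 alone. Gene bodies alone held 34 peaks at day 9 and 35 at day 28 in 43 regions, with 11 at days 9 and 28 and 6 at day 9 alone. Flanks of 10 kb gave 10 regions of day 9 alone, and flanks of 50 kb gave 28, with 44 peaks at day 0 and 95 at day 9. Peaks nearest to a start of a member numbered 37 at day 9 and 34 at day 28, in 47 regions, with 12 at days 9 and 28 and 8 at day 9 alone. Lists of equal length gave 33 and 31 peaks at days 9 and 28 in 46 regions, with 10 at days 9 and 28 and 4 at day 9 alone. Joining peaks only by the 100 bp around their centres gave 111 regions, with 7 at all days and 38 at day 9 alone. Without *Alpl*, a choice made after seeing the data, there were 38 and 31 peaks at days 9 and 28 in 48 regions, with 9 at days 9 and 28 and 11 at day 9 alone. TGTGGT within 100 bp of the centre was found in 14, 20 and 14 peaks, and in whole peaks in 20, 41 and 36. TGYGGT was found in 12 peaks at day 28. Of the other alternative counts, 56 stayed within 1.5 times. Stricter thresholds keep fewer peaks, wider windows hold more and narrower joining splits regions by construction. No paired analysis was possible because each time point has 1 pooled list. The lists hold no read counts, so a region without a peak at a day is one not listed at 1e-10.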
